A study of Mus musculus with 6 samples.

Results

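The genes described here are 10 transcriptional targets of the tumour suppressor p53: Cdkn1a, Mdm2, Plk2, Sesn1, Sesn2, Gadd45a, Bbc3, Bax, Ccng1 and Trp53inp1. They were found by their symbols among the 54446 entries of the deposited expression table, where each had 1 entry. All 10 reached 1 FPKM in 2 or more of the 6 samples, the filter used here, and so were among the 12722 entries tested. FPKM scales fragments by gene length and library size, and so allows levels to be compared between genes of different length. The cells were bone marrow-derived macrophages (BMDMs) of C57BL/6 mice aged 6 weeks, per the labels. They had been given PBS, a buffer, KN93 at 5 µM or KN93 at 10 µM, and each of these 3 groups held 2 samples. KN93 is a small-molecule inhibitor of calcium/calmodulin-dependent protein kinase II. The labels state neither how long treatment lasted nor whether samples of one group are independent cultures or mice, so a p-value here reflects how far the samples at hand scatter, and that scatter may be technical.

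p53 is a transcription factor that is held low by the ubiquitin ligase Mdm2 and accumulates after DNA damage and other stress. It binds an element made of a pair of decamers and raises genes that halt the cell cycle, repair DNA, adjust metabolism or start apoptosis, and it raises Mdm2, which closes a feedback loop. Many of these genes also have other regulators: Sesn2 and Gadd45a can be raised by ATF4 in amino acid and endoplasmic reticulum stress, and FOXO factors act on Sesn1, Gadd45a and Bbc3.

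Of the 10 genes, 9 rose at both doses against PBS, and Sesn1 fell at both (limma, adjusted p under 0.05). Of all 12722 genes tested, 15.1% rose and 15.4% fell at 5 µM, 30.5% together, and 28.5% rose and 22.0% fell at 10 µM, 50.5% together. The 10 genes were chosen with earlier results of these data known, so these shares are not an independent comparison. Gadd45a rose the most, to 5.65 times its PBS mean at 10 µM, and Ccng1 the least, to 1.17 times. Sesn1 fell to 0.248 times its PBS mean at 10 µM. The transcript of p53 itself, Trp53, fell at both doses, and the call at 10 µM was lost in 6 of 15 alternatives. The activity of p53 protein was not measured. In bulk RNA, fewer cells of a type and less RNA per cell cannot be told apart.

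Promoter sequence was taken from RefSeq on GRCm38.p6, as windows of 250 bases before to 50 bases after each annotated start, to show which of these genes carry the p53 element next to a start. Windows were found for 9 of the 10 genes, 13 windows in all, and none for Trp53inp1. The p53 consensus decamer, which reads the same on both strands, was matched exactly in windows of 6 genes. Of 27025 genes with windows in the whole RefSeq table, 9.55% had such a match. A full site, here a pair of decamers with at most 13 bases between them and at most 1 mismatch in all, was found in windows of 3 genes, Cdkn1a, Ccng1 and Bax, and in 1.24% of all genes. Cdkn1a was the only one of the 10 genes with an exact full site, which 0.074% of all genes had. A match is a description of the letters, and p53 sites outside these windows, such as those within introns, were not searched.

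The stretches with matches are shown because they hold the letters of the p53 element next to a start. They run 5′ to 3′ on the strand of the gene, with exact decamers, and the partner decamer that carries the 1 mismatch of a full site, in capitals. The Cdkn1a stretch is chr17:29090729-29090978 on the plus strand, the 250 bases before the more upstream of its 2 starts. The window of its other start held no exact decamer and no full site. Which starts these cells use was not tested. The stretches of 80 bases around the matches are chr11:40755432-40755511 on the minus strand for Ccng1, chr7:45467061-45467140 on the minus strand for Bax, chr10:117710900-117710979 on the minus strand for Mdm2, chr6:67037408-67037487 on the minus strand for Gadd45a, and chr10:41887231-41887310 on the plus strand for Sesn1.
Cdkn1a: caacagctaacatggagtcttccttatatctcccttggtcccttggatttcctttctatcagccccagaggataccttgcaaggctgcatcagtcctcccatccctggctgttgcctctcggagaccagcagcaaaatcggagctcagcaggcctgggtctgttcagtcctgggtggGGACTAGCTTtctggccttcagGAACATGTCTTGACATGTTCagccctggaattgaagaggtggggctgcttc
Ccng1: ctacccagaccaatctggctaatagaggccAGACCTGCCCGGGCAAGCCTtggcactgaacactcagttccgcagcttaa
Bax: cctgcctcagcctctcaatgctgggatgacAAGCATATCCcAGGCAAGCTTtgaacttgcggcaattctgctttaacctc
Mdm2: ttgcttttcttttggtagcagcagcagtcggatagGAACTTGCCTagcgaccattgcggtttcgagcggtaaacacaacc
Gadd45a: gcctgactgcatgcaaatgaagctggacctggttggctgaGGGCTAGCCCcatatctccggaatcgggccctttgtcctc
Sesn1: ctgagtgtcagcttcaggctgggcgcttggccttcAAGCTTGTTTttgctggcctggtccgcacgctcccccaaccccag

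In the Cdkn1a stretch the decamers at -73 to -64 and -51 to -42, counted from the start, made the exact full site. The second of them also pairs with the adjoining decamer, with 1 mismatch, from -51 to -32, so both full sites share that decamer. The full sites of Ccng1, at -195 to -176, and Bax, at -212 to -192, each had 1 mismatch. Mdm2, Gadd45a and Sesn1 had 1 exact decamer each with no partner in reach. Plk2, Sesn2 and Bbc3, which rose, had no exact decamer in their windows, whereas Sesn1, which fell, had 1. Whether these letters bear on the direction of change was not tested. The FOXO word TGTTTAC, searched on both strands, was in windows of Bbc3, Mdm2 and Sesn1, 3 of the 9 genes, and in 4.05% of all genes. It overlapped no p53 decamer, and in Sesn1 it lay in the window of a different start from the decamer. The ATF4 word TGATGNAA, searched on both strands, was in none of the 9 and in 4.51% of all genes. No match means only that these letters are not in these windows.

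**Figure D1:**
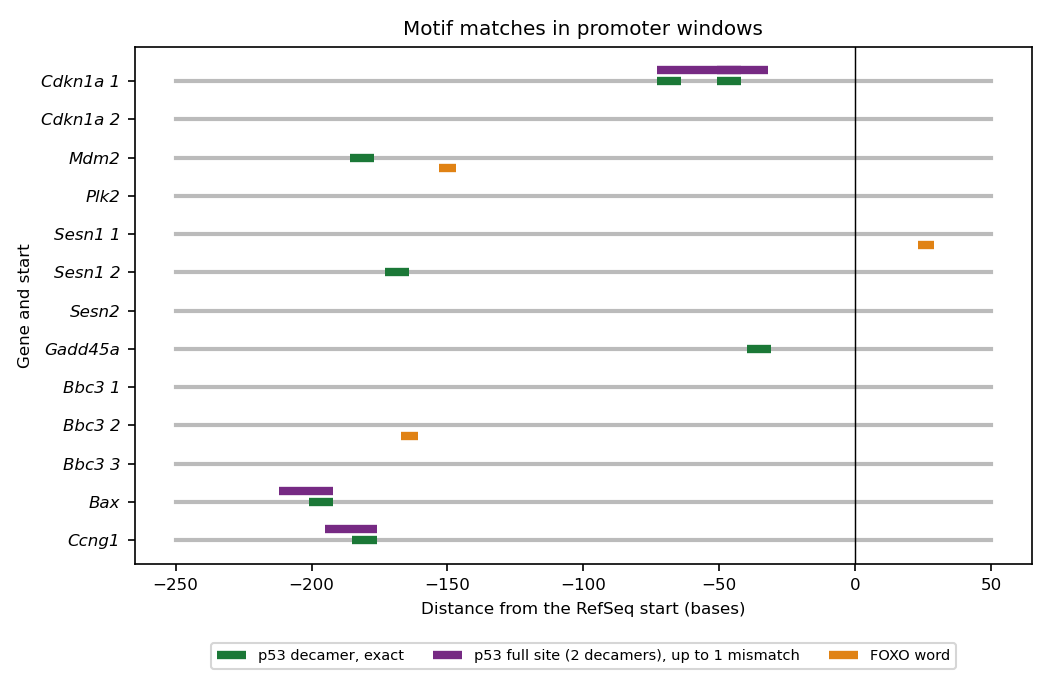
Positions of motif matches in the 13 RefSeq promoter windows of 9 genes, in bases from each start (0), one line per window, with genes that have several starts numbered from low to high coordinate. Green bars are exact p53 decamers, purple bars full sites with at most 1 mismatch, orange bars the FOXO word. Purple bars lie in 3 genes, Cdkn1a, Bax and Ccng1.

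The feedback genes were Mdm2 and Ccng1. Mdm2 encodes the ubiquitin ligase that marks p53 for degradation, and lies on chromosome 10 of GRCm38 at 117688875 to 117710758. It had 19.6 and 20.8 FPKM in the PBS samples, 30.4 and 29.4 FPKM at 5 µM, and 44.0 and 42.0 FPKM at 10 µM. The 3 groups did not overlap and stood in the order of dose. On the log2(FPKM + 1) scale, on which all changes below are given and which understates the change of low genes, Mdm2 rose by 0.54 ± 0.05 at 5 µM (standard error, limma adjusted p = 0.00164) and by 1.05 ± 0.05 at 10 µM (limma adjusted p = 7.04e-05) against PBS. Between the doses, 10 µM against 5 µM, it rose by a further 0.51 ± 0.05 (limma adjusted p = 0.00351). These calls held in all 15 alternative settings.

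Ccng1 encodes cyclin G1, which binds protein phosphatase 2A and takes part in the control of Mdm2 (chromosome 11, 40748552 to 40755311). It had 48.1 and 49.98 FPKM in the PBS samples, 58.5 and 56.6 FPKM at 5 µM, and 57.3 and 57.5 FPKM at 10 µM. Both doses lay above PBS, and the values at 10 µM lay within the range of those at 5 µM. The rise against PBS was 0.23 ± 0.04 at 5 µM and 0.22 ± 0.04 at 10 µM (limma adjusted p = 0.0159 and 0.00932). At 10 µM against 5 µM the difference was -0.0029, with a 95% confidence interval of -0.11 to 0.11. At 5 µM the test no longer passed without the PBS replicate 1 (adjusted p = 0.0943), the PBS replicate 2 (0.0525), the 5 µM replicate 1 (0.0895) or the 5 µM replicate 2 (0.0586), over a range of 0.0126 to 0.0943 in the alternatives. At 10 µM it no longer passed without the PBS replicate 1 (adjusted p = 0.0607, range 0.00867 to 0.0607). Ccng1 had a full p53 site beside its start and the smallest rise of the 9 at both doses.

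The genes that act on the cell cycle were Cdkn1a, Gadd45a and Plk2. Cdkn1a encodes p21, the inhibitor of cyclin-dependent kinases through which p53 stops the cell cycle (chromosome 17, 29090976 to 29100727). Its level was the highest of the 10 in every sample, with 77.9 and 74.1 FPKM in the PBS samples, 124 and 124 FPKM at 5 µM, and 141 and 147 FPKM at 10 µM. The groups did not overlap, and most of the difference was present at 5 µM. Against PBS it rose by 0.70 ± 0.05 at 5 µM (limma adjusted p = 0.000707) and by 0.91 ± 0.05 at 10 µM (limma adjusted p = 9.39e-05). The further rise at 10 µM against 5 µM was 0.21 ± 0.05 (limma adjusted p = 0.0354, range over the alternatives 0.02 to 0.144). That call held in 4 of 15 alternatives. It was lost without the PBS replicate 1 or 2 (adjusted p = 0.0595 and 0.0593), the 5 µM replicate 1 or 2 (0.128 and 0.144) and the 10 µM replicate 1 or 2 (0.0651 and 0.111). Of the exon bases of Cdkn1a, 273 (7.68%) are shared with AC167363.2 on the opposite strand, which had between 6.58 and 14.6 FPKM. Whether counting used strand is not stated, so fragments of this overlap cannot be told apart.

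Gadd45a encodes a small stress protein that binds PCNA and activates MAP kinase signalling (chromosome 6, 67035096 to 67037457). It had 5.92 and 7.38 FPKM in the PBS samples, 21.8 and 21.2 FPKM at 5 µM, and 36.5 and 38.7 FPKM at 10 µM. Every KN93 sample was well above both PBS samples, and the doses did not overlap. Its rise was the largest of the 10 at both doses, 1.56 ± 0.10 at 5 µM and 2.34 ± 0.10 at 10 µM (limma adjusted p = 0.000537 and 4.47e-05), or 3.23 and 5.65 times the PBS mean in FPKM. Among all 12722 genes it ranked 32nd by rise at 5 µM and 37th at 10 µM. At 10 µM against 5 µM it rose by 0.78 ± 0.10 (limma adjusted p = 0.00574). The long noncoding gene E230016M11Rik, on the opposite strand, shares 337 (19.1%) of its exon bases and had between 0.677 and 2.11 FPKM. The caution about strand given for Cdkn1a applies here too.

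Plk2 encodes a polo-like kinase that acts in the G1 phase and in the stress response (chromosome 13, 110395046 to 110400844). It had 14.6 and 15.7 FPKM in the PBS samples, 21.2 and 20.7 FPKM at 5 µM, and 36.5 and 34.2 FPKM at 10 µM. It rose by 0.44 ± 0.06 at 5 µM and by 1.17 ± 0.06 at 10 µM against PBS (limma adjusted p = 0.00449 and 7.23e-05), without overlap between groups. At 10 µM against 5 µM the rise was 0.73 ± 0.06 (limma adjusted p = 0.00191). The Plk2 and Gadd45a calls held in all 15 alternatives.

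The genes of apoptosis were Bbc3, Bax and Trp53inp1. Bbc3 encodes PUMA, a BH3-only protein that neutralises the anti-apoptotic BCL2 proteins (chromosome 7, 16308393 to 16318205). With 4.95 and 4.52 FPKM it was the lowest of the 10 in the PBS samples, and it had 7.63 and 7.17 FPKM at 5 µM and 13.1 and 15.3 FPKM at 10 µM. These values rest on 272 to 283 recovered fragments per PBS sample and 674 to 925 at 10 µM, whereas Cdkn1a had at least 7449 in every sample. The 3 groups of Bbc3 did not overlap. Bbc3 rose by 0.55 ± 0.09 at 5 µM and by 1.41 ± 0.09 at 10 µM against PBS (limma adjusted p = 0.00751 and 0.000136). Its rise at 10 µM against 5 µM, 0.86 ± 0.09 (limma adjusted p = 0.00341), was the largest of the 10 in that comparison.

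Bax encodes the effector that permeabilises the outer mitochondrial membrane (chromosome 7, 45461697 to 45466898). It shares 192 (12.2%) of its exon bases with Gm45808, which is listed at 0 in every sample. Bax had 53.2 and 53.2 FPKM in the PBS samples, 72.4 and 66.0 FPKM at 5 µM, and 79.1 and 88.1 FPKM at 10 µM. The groups did not overlap, and the replicates at each dose of KN93 lay further apart than those with PBS. The rise was 0.37 ± 0.07 at 5 µM and 0.64 ± 0.07 at 10 µM (limma adjusted p = 0.0144 and 0.00108). At 5 µM the test no longer passed without the PBS replicate 1 or 2 (adjusted p = 0.0685 and 0.0653) or the 5 µM replicate 1 (0.0716, range over the alternatives 0.00637 to 0.0716). At 10 µM against 5 µM the difference of 0.27 ± 0.07 did not pass (limma adjusted p = 0.0521), and it passed with a filter of 5 FPKM (0.0379) and with voom on recovered fragments (0.0228, range 0.0228 to 0.212).

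Trp53inp1 encodes a stress-induced nuclear protein that promotes the pro-apoptotic activity of p53 (chromosome 4, 11156431 to 11174379). It had 6.01 and 6.70 FPKM in the PBS samples, 7.98 and 9.12 FPKM at 5 µM, and 10.5 and 9.28 FPKM at 10 µM. Both doses lay above PBS, and the doses were close to each other. It rose by 0.37 ± 0.09 at 5 µM and by 0.56 ± 0.09 at 10 µM (limma adjusted p = 0.0296 and 0.00426). At 5 µM the test no longer passed without the PBS replicate 1 or 2 (adjusted p = 0.138 and 0.06), the 5 µM replicate 2 (0.13) or with no filter (0.0886), over a range of 0.0135 to 0.138. At 10 µM against 5 µM the difference was 0.19 with a 95% confidence interval of -0.04 to 0.42 (limma adjusted p = 0.201).

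The sestrins moved in opposite directions. Sestrins restrain the growth kinase complex mTORC1 through GATOR2 when amino acids are short, and Sesn1 and Sesn2 are both known p53 targets. Sesn1 (chromosome 10, 41809935 to 41908424) had 28.4 and 26.5 FPKM in the PBS samples, 13.5 and 13.9 FPKM at 5 µM, and 6.86 and 6.79 FPKM at 10 µM. Each dose step took it to about the same fraction, with means of 0.499 times PBS at 5 µM and, at 10 µM against 5 µM, 0.498 times. Its change was -0.95 ± 0.05 at 5 µM, -1.86 ± 0.05 at 10 µM and -0.91 ± 0.05 from the lower dose to the higher (limma adjusted p = 0.00038, 1.81e-05 and 0.000963), and each call held in all 15 alternatives. Among the 12722 genes Sesn1 ranked 141st by fall at 10 µM.

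Sesn2 (chromosome 4, 132492032 to 132510501) had 13.01 and 13.22 FPKM in the PBS samples, 16.6 and 15.4 FPKM at 5 µM, and 26.0 and 26.7 FPKM at 10 µM. It rose by 0.27 ± 0.05 at 5 µM, by 0.96 ± 0.05 at 10 µM and, at 10 µM against 5 µM, by 0.69 ± 0.05 (limma adjusted p = 0.0163, 0.000106 and 0.00171). At 5 µM the test no longer passed without the PBS replicate 1 or 2 (adjusted p = 0.0855 and 0.0674) or the 5 µM replicate 1 (0.082, range over the alternatives 0.0111 to 0.0855). In FPKM, which is per length, Sesn1 was 2.18 and 2.01 times Sesn2 in the PBS samples, 0.813 and 0.903 times at 5 µM, and 0.263 and 0.254 times at 10 µM. The more abundant of the pair was thus Sesn1 with PBS and Sesn2 at both doses. The third sestrin, Sesn3, is in the list of other p53 targets below and was named after its values were seen, to complete the family. It had 1.117 and 1.267 FPKM in the PBS samples, 0.8602 and 0.9665 FPKM at 5 µM, and 0.84 and 0.658 FPKM at 10 µM. Its change was -0.20 ± 0.10 at 5 µM and -0.33 ± 0.10 at 10 µM (limma adjusted p = 0.212 and 0.0438). Sesn3 reached 1 FPKM only in the PBS samples, so the filter favoured a fall. The sum of the 3 sestrins was 42.5 and 41 FPKM in the PBS samples, 31 and 30.2 FPKM at 5 µM, and 33.7 and 34.2 FPKM at 10 µM.

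**Figure D2:**
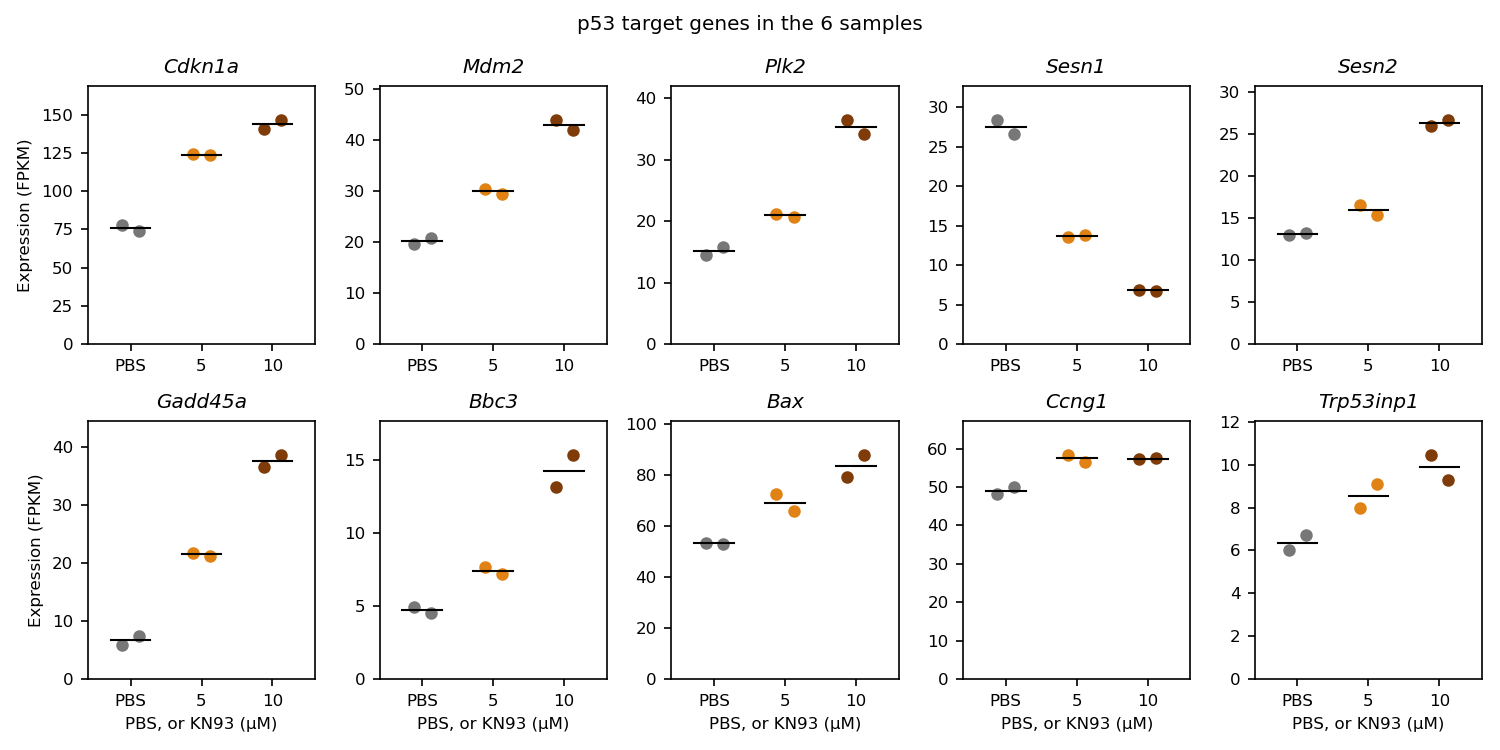
Expression of the 10 genes in FPKM (vertical axes, each from 0) in PBS samples (grey) and at 5 µM (orange) and 10 µM (brown) KN93. Points are the 2 samples of a group and bars their means. Sesn1 steps down to 6.82 FPKM at 10 µM, Gadd45a steps up to 37.6 FPKM, and Ccng1 has means of 57.5 FPKM at 5 µM and 57.4 FPKM at 10 µM.

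As a group, 9 of the 10 rose and 1 fell at 5 µM against PBS, where 15.1% of all genes tested rose and 15.4% fell, 30.5% together (limma, adjusted p under 0.05). At 10 µM the counts were again 9 and 1, where 28.5% of all genes rose and 22.0% fell, 50.5% together. The groups of 2 did not overlap for any of the 10 in either comparison, for 37.0% of all genes on the higher side and 33.0% on the lower side at 5 µM, and for 44.2% and 32.6% at 10 µM. The median change of the 10 was 0.41 at 5 µM and 0.93 at 10 µM, beside 0.01 and 0.05 for all genes. Because the 10 were chosen with earlier results of these data known, the shares and medians of all genes only describe the setting. With 1 PBS sample left out, either one, 6 of the 10 passed at 5 µM, among them Sesn1. At 10 µM, 9 or all 10 passed with any sample left out.

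Between the doses, 6 of the 10 rose and Sesn1 fell at 10 µM against 5 µM, beside 11.4% and 8.50% of all genes, 19.9% together. The groups did not overlap for 8 genes on the higher side and 1 on the lower, beside 37.7% and 26.0% of all genes. The 6 were Bbc3, Gadd45a, Plk2, Sesn2, Mdm2 and Cdkn1a. Bax, Trp53inp1 and Ccng1 did not pass. Whether the step from 5 to 10 µM differed from the step from PBS to 5 µM was tested in the same fit, and 1 of the 10 passed, where 5.36% of all genes did, 2.88% with a positive and 2.48% with a negative difference. That was Cdkn1a, whose second step was smaller than its first by 0.49 ± 0.09 (difference -0.49, limma adjusted p = 0.0408). It passed in 5 of 14 alternatives, over a range of 0.0221 to 0.225, and was lost without the PBS replicate 1 or 2 (adjusted p = 0.101 and 0.0974), the 5 µM replicate 1 or 2 (0.171 and 0.225) and the 10 µM replicate 1 or 2 (0.0883 and 0.0591). For Gadd45a the difference between steps was -0.79 ± 0.17 and for Sesn2 it was 0.42 ± 0.09, and neither passed (limma adjusted p = 0.0576 and 0.062, ranges 0.015 to 0.243 and 0.03 to 0.303). The Mdm2 and Sesn1 differences were -0.03 and 0.04, with 95% confidence intervals of -0.26 to 0.19 and -0.18 to 0.27.

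**Figure D3:**
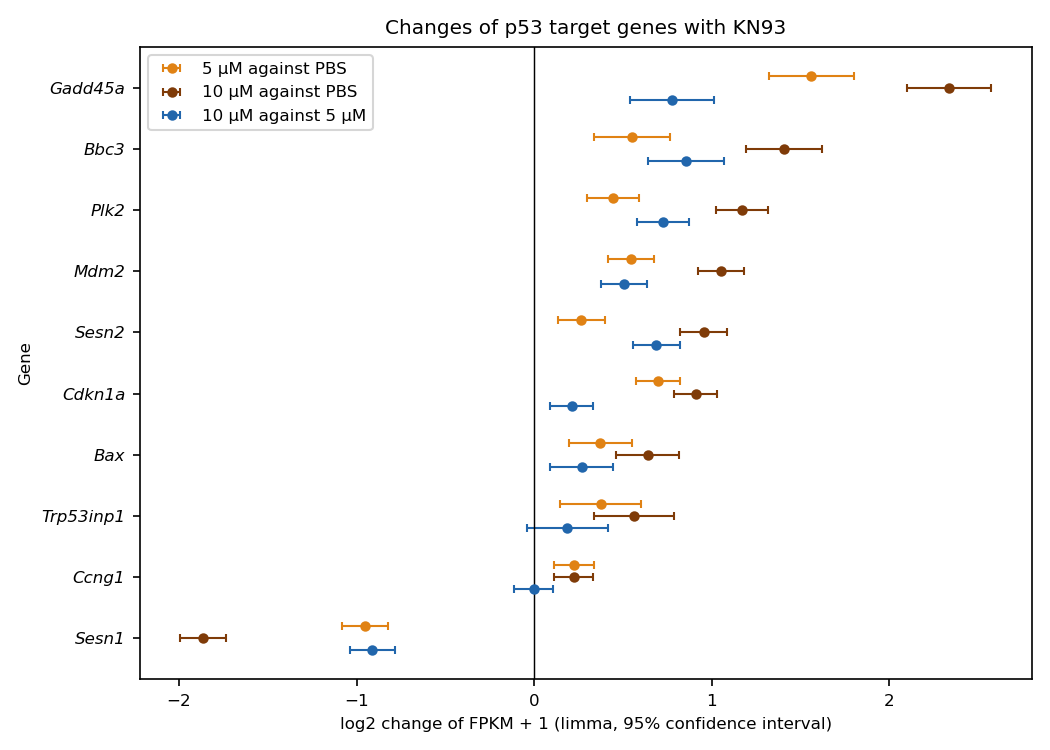
Change of each of the 10 genes on the log2(FPKM + 1) scale (horizontal axis) at 5 µM against PBS (orange), at 10 µM against PBS (brown) and at 10 µM against 5 µM (blue), with 95% confidence intervals from limma. The comparisons share samples. The whole intervals of Sesn1 lie left of 0, with changes of -0.95, -1.86 and -0.91, and the intervals of Ccng1 and Trp53inp1 between the doses span 0.

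**Figure D4:**
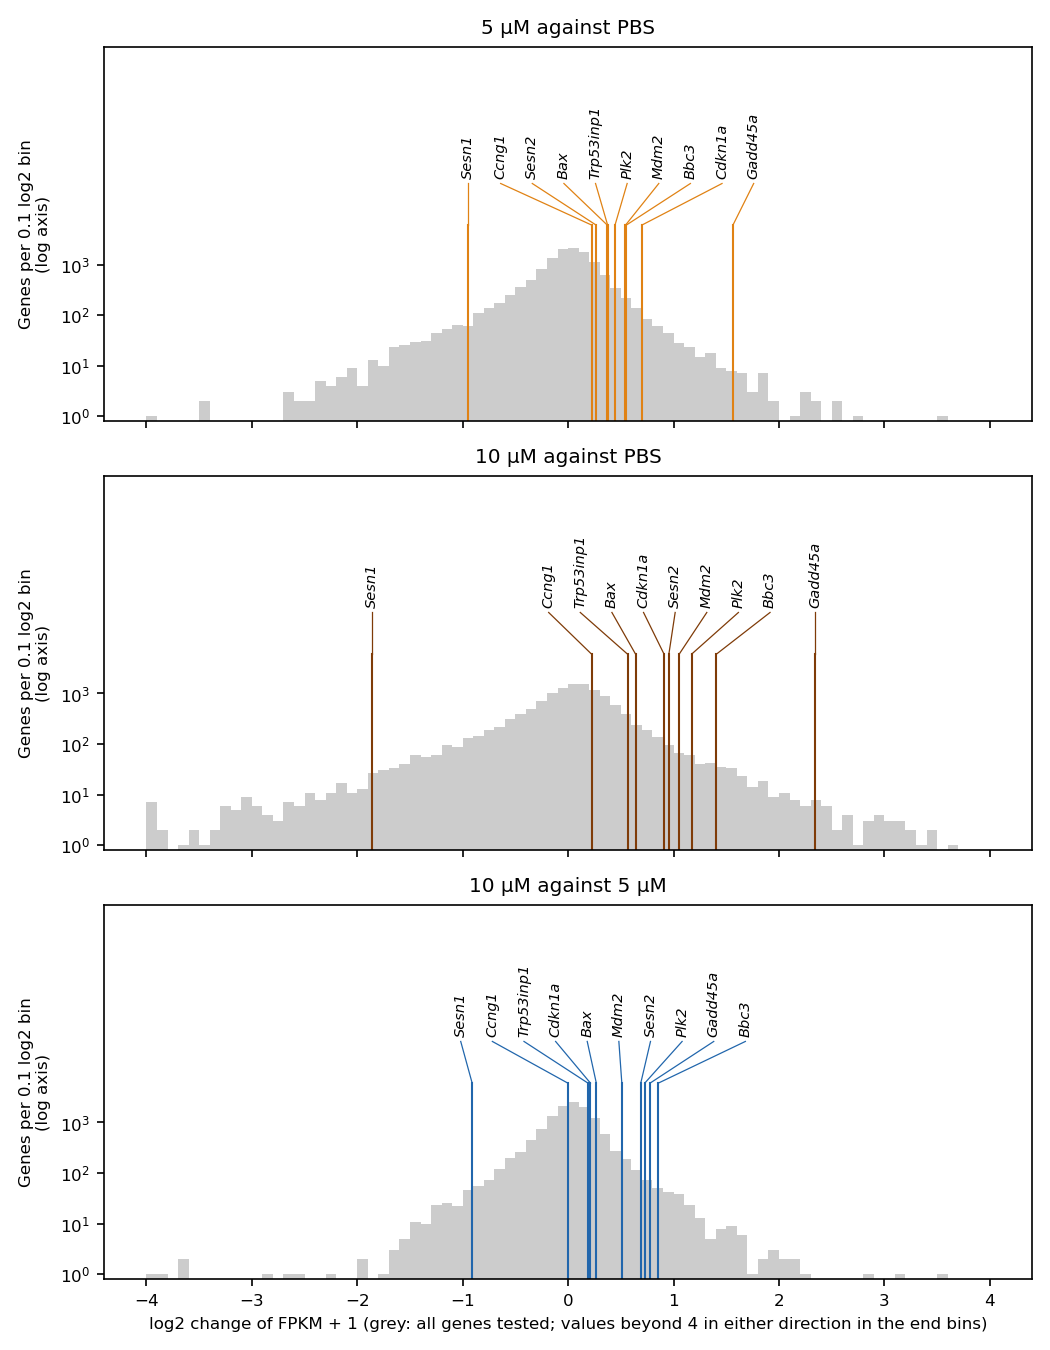
Changes of the 10 genes (coloured lines) over the distribution of all 12722 genes tested (grey, genes per bin of 0.1 on a log axis), for each comparison. Gadd45a lies in the upper tail at 1.56 and 2.34 against PBS, Sesn1 in the lower tail at -0.95 and -1.86, and Ccng1 within the bulk at 0.23 and 0.22.

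Levels per length differed widely among the 10. In the PBS samples the order from high to low was Cdkn1a, Bax, Ccng1, Sesn1, Mdm2, Plk2, Sesn2, Gadd45a, Trp53inp1 and Bbc3. Gadd45a and Trp53inp1, neighbours in that order, overlapped. At 10 µM the order was Cdkn1a, Bax, Ccng1, Mdm2, Gadd45a, Plk2, Sesn2, Bbc3, Trp53inp1 and Sesn1, with Gadd45a and Plk2 overlapping. Sesn1 thus went to the lowest place, and Gadd45a moved up from the eighth to the fifth.

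By profile over the 6 samples, after subtracting each gene's PBS mean, the genes nearest to Cdkn1a were Plin3, Atp6v0d1 and Snx32, with root mean square differences of 0.0403, 0.0403 and 0.0444 on the log2 scale. The level of Plin3 averaged 20.8 ± 0.424 FPKM in PBS samples, 33.5 ± 0.0837 FPKM in 5 µM samples and 40.4 ± 1.91 FPKM in 10 µM samples (SD, n = 2 each). Among the genes nearest to Sesn1 were Trib1 and Itgam, at 0.0571 and 0.0901. Itgam, which encodes the integrin CD11b, averaged 52.6 ± 3 FPKM in PBS samples, 24.9 ± 0.987 FPKM in 5 µM samples and 12.7 ± 0.321 FPKM in 10 µM samples. Such likeness over 3 group levels says nothing of shared control.

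Other p53 targets were taken from a list of 45 genes, of which 41 were tested. At 5 µM 10 rose, 3 fell and 28 did not pass, with a median of 0.10. At 10 µM 18 rose, 4 fell and 19 did not pass, with a median of 0.21. The list holds none of the 10. Of all genes tested, 15.1% rose and 15.4% fell at 5 µM, and 28.5% rose and 22.0% fell at 10 µM, with medians of 0.01 and 0.05. At 5 µM the 13 calls became 7 without the PBS replicate 1 or without the 5 µM replicate 1. Gdf15, which encodes a stress-induced cytokine, had 6.02 and 6.75 FPKM in the PBS samples, 21.5 and 21.5 FPKM at 5 µM, and 37.9 and 41.6 FPKM at 10 µM (limma adjusted p = 1.81e-05 at 10 µM). It is also a known ATF4 and CHOP target.

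Here and below, ± on a level in FPKM is the SD of 2 samples, and ± on a change is the standard error from limma. Of the 11 other genes of arrest and feedback, 6 rose and 1 fell at 10 µM, beside 28.5% and 22.0% of all genes. Phlda3, which encodes a repressor of Akt, rose to 35.3 ± 4.47 FPKM, against 16.7 ± 0.506 with PBS, and Psrc1 to 7.94 ± 0.132, against 3.91 ± 0.105 (limma adjusted p = 0.000403 and 0.000121). Zmat3, which encodes an RNA-binding protein, rose to 8.94 FPKM, against 6.44 with PBS. Btg2, an antiproliferative gene, fell to 6.71 ± 0.0436 FPKM, against 9.46 ± 1.03 with PBS (limma adjusted p = 0.00658). Ppm1d, whose product WIP1 is a phosphatase that damps p53 signalling, had 3.51 ± 0.442 FPKM at 10 µM and 3.14 ± 0.026 with PBS and did not pass (limma adjusted p = 0.274).

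Of the 13 other genes of apoptosis, 3 rose and 1 fell at 5 µM, beside 15.1% and 15.4% of all genes. The 1 that fell, Pmaip1, named after its values were seen, did not pass at 10 µM. At 10 µM 5 rose, 0 fell and 8 did not pass, beside 28.5% and 22.0% of all genes. The share that rose was thus not far from that of all genes. Aen, which encodes an apoptosis-enhancing nuclease, rose to 13.5 ± 0.409 FPKM, against 7.82 ± 0.308 with PBS (limma adjusted p = 0.000227), and Bid to 14.8 FPKM, against 9.67 with PBS. Of the 17 genes of repair and metabolism, 7 rose and 3 fell at 10 µM, beside the same 28.5% and 22.0%. Ephx1, which encodes microsomal epoxide hydrolase, rose to 30.5 FPKM, against 18.6 with PBS, and Tigar, which lowers glycolytic flux, to 5.31 FPKM, against 3.87 with PBS. Pcna, also in this list, rose to 70.4 FPKM, against 53.1 with PBS (limma adjusted p = 0.00119). Gpx1, which encodes glutathione peroxidase 1, fell to 173 FPKM, against 233 with PBS.

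In the list of p53 regulators, which also holds Trp53 itself, 15 genes were tested. Of these, 0 rose and 1 fell at 5 µM, and 1 rose and 1 fell at 10 µM. The gene that fell at both doses was Trp53. Of all genes, 30.5% passed in either direction at 5 µM and 50.5% at 10 µM. Trp53 had 19.2 and 18.2 FPKM in the PBS samples, 14.9 and 13.9 FPKM at 5 µM, and 16.3 and 16.4 FPKM at 10 µM. All 4 KN93 samples lay below both PBS samples. Trp53 differed by 0.17 ± 0.06 at 10 µM against 5 µM, which did not pass (limma adjusted p = 0.0806). Its change was -0.36 ± 0.06 at 5 µM, called in all 15 alternatives, and -0.18 ± 0.06 at 10 µM (limma adjusted p = 0.00719 and 0.0357). The test at 10 µM did not pass without the PBS replicate 1 or 2 (adjusted p = 0.169 and 0.0661), the 10 µM replicate 1 or 2 (0.0991 and 0.0971), with no filter (0.0653) or no intensity trend (0.0527, range over the alternatives 0.0143 to 0.169). The gene that rose was Kat5, which encodes the acetyltransferase TIP60, at 0.17 ± 0.05 (limma adjusted p = 0.0423, range 0.0357 to 0.148), a call lost in 9 of 15 alternatives. Without either PBS replicate none of the 15 passed at 10 µM. Mdm4, the partner of Mdm2, had 6.35 ± 0.68 FPKM at 10 µM and 5.68 ± 0.25 with PBS (limma adjusted p = 0.219). The p53 relative Trp73 was listed at 0 in all 6 samples, and Trp63 did not exceed 0.0168 FPKM.

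In a list of 30 genes known to be repressed when p21 allows the DREAM complex to form, nearly all that were tested fell. Of the 27 tested, 26 fell at 5 µM and 27 at 10 µM, and 0 rose, with medians of -0.92 and -1.09. Of all genes, 15.4% fell at 5 µM and 22.0% at 10 µM, with medians of 0.01 and 0.05. Top2a, which encodes a DNA topoisomerase, had 0.992 ± 0.22 FPKM at 10 µM and 6.79 ± 0.362 with PBS (SD, n = 2 each). Ccna2, which encodes cyclin A2, had 0.495 ± 0.0165 and 3.97 ± 0.000636 in the same groups (limma adjusted p = 6.69e-05 for Top2a and 6.41e-05 for Ccna2). In the list of 20 ATF4 response genes, which holds none of the 10, 13 rose and 2 fell at 5 µM, and 15 rose and 0 fell at 10 µM, with medians of 0.44 and 0.95, beside 15.1% of all genes that rose at 5 µM and 28.5% at 10 µM. At 5 µM the 15 calls became 9 without either PBS replicate. Atf4 itself had 164 ± 5.34 FPKM at 10 µM and 50.8 ± 0.227 with PBS, and Ddit3, which encodes CHOP, had 129 ± 0.635 and 17.4 ± 0.994 in the same groups (limma adjusted p = 1.81e-05 and 1.25e-05). These lists too were chosen with earlier results of these data known. The part of ATF4 or of p53 in the changes of the 10 genes was not tested, nor was that of p21 in the fall of the p21 and DREAM list.

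**Figure D5:**
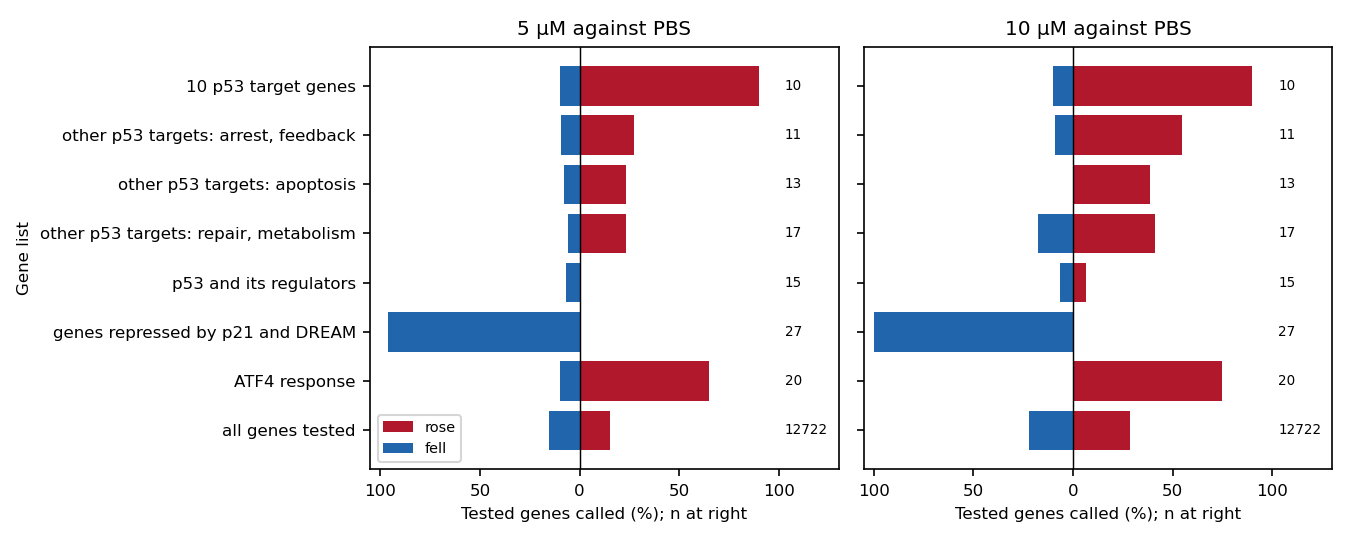
Share of tested genes that rose (red, to the right) or fell (blue, to the left) at 5 µM and 10 µM against PBS by limma at an adjusted p under 0.05, for the 10 genes, the other p53 lists, the ATF4 list and all genes, with the number tested at the right. The bar of the 10 genes reaches 9 of 10 rising at both doses, and the p21 and DREAM list reaches 27 of 27 falling at 10 µM. Some genes of that list reached 1 FPKM only with PBS, so the filter favoured their fall.

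Markers of macrophages and of other cells also differed between the groups. Of the 10 macrophage markers 2 rose, 6 fell and 2 did not pass at 5 µM, and 1 rose, 7 fell and 2 did not pass at 10 µM. Among all genes tested, 15.1% rose and 15.4% fell at 5 µM, and 28.5% rose and 22.0% fell at 10 µM. The markers that did not fall at 5 µM, named after their values were seen, were Cd68, Mertk, Spi1 and Fcgr1. Cd68 averaged 851 FPKM in PBS samples, 1520 FPKM in 5 µM samples and 1453 FPKM in 10 µM samples, and rose at both doses (limma adjusted p = 0.000887 and 0.000403). Mertk averaged 54.7 FPKM in PBS samples, 67.7 FPKM in 5 µM samples and 45.4 FPKM in 10 µM samples, and so rose at 5 µM and fell at 10 µM (limma adjusted p = 0.0184 and 0.0177). Spi1 and Fcgr1 did not pass at either dose. The alternative settings were not run for Cd68 and Mertk singly. All 10 macrophage markers were above 1 FPKM in at least 1 sample, and their summed level was 18385 to 18927 FPKM in PBS samples, 14436 to 14912 FPKM in 5 µM samples and 8394 to 9247 FPKM in 10 µM samples, a sum set mostly by Lyz2. Summed over 12 stromal markers it was 1968 to 2011, 536 to 649 and 380 to 399 FPKM in the same order, with Lum and Thy1 under 1 FPKM. Col1a1, Acta2 and Col1a2 made up most of this sum. Of the 10 stromal markers tested, 7 fell at 5 µM, 8 fell at 10 µM and 0 rose. Pdgfra and Dcn did not pass at either dose. Over 10 neutrophil markers the summed level was 114.7 to 115, 37.1 to 42.8 and 5.22 to 7.32 FPKM, with 5 of the 10 under 1 FPKM in every sample. Lymphocyte markers summed to at most 8.15 FPKM, nearly all from Cd79b, and dendritic cell markers to at most 0.483 FPKM. The part of these shifts in the changes of the 10 genes was not tested.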

How the data were processed

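RNA sequencing was done on BMDMs in 3 groups of 2 samples. The authors deposited 1 table of 54446 entries in FPKM, the unit being taken from the table's name and values. Reads were aligned with HISAT2 to GRCm38, per the submitters' processing notes. No source used here gives versions, the counting tool, annotation, strand or filters. Each column name carried a sample's title.

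Entries were matched to GENCODE M21 (54409, 99.93%), which gave coordinates and exon lengths. Fragments were recovered as whole multiples of the value of 1 fragment: 98.8% to 98.95% of values of up to 20 fragments came out within 0.1 of a whole number. The implied library totals were 24.17 to 28.38 in units of 1000000 fragments. In every sample the recovered fragments summed to more than the implied total, 26.06 to 30.72 in the same units, and the reason was not tested. The voom setting used these sums as library sizes. Between replicates the median chi-square per gene ran from 1.18 for PBS to 1.87 for 10 µM, above the 0.455 that counting noise alone would give, so no pair was treated as 1 library.

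Genes that reached 1 FPKM in 2 or more samples (12722) were analysed as log2(FPKM + 1) in limma 3.58.1 under R 4.3.3 (group as a factor, all 6 samples, intensity trend, 3 residual and 2.718 prior degrees of freedom), two-sided, with Benjamini-Hochberg adjustment over all genes tested. The fit was tested on simulated data. Alternative settings were no filter, a 5 FPKM filter, a 0.1 FPKM pseudocount, median-of-ratios scaling, quantile normalization, no trend, a replicate block, a fit to only 2 groups, voom on recovered fragments, and each sample left out. All 10 genes were named, and of each other list up to 6 called genes with the smallest p at 10 µM, plus Trp53, Mdm4 and Ppm1d; the text describes some of these. For Cdkn1a and Sesn1 the 3 genes nearest in profile were named, leaving out predicted-gene names; 1 of these is not reported here. The genes and lists were chosen with earlier results of these data known.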

Additional observations from a re-analysis of the deposited data

How the results depend on the processing

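Directions of the 10 genes against PBS were the same in all 15 alternatives, and at 10 µM 9 or 10 of them passed in each. At 5 µM 6 to 10 passed with a sample left out. The difference between dose steps, called for 1 of the 10, was called for 0 with no filter, no trend or the replicate block, 2 with quantile normalization, 3 with a 5 FPKM filter or voom, and 0 to 1 with a sample left out. The cause of these shifts was not tested.

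With a sample left out, calls numbered 7 to 13 in the wider p53 list at 5 µM (main 13) and 2 to 7 at 10 µM against 5 µM (main 11, and 4 with no filter). Calls of p53 regulators numbered 1 to 2 at 5 µM (main 1, and 3 with voom) and 0 to 2 at 10 µM (main 2), where no filter gave 0 and median-of-ratios scaling, no trend and the replicate block gave 1 each. In the p21 and DREAM list a 5 FPKM filter, which tests fewer genes, left 12 at 5 µM and 13 at 10 µM, against 26 and 27. For 10 µM against 5 µM that filter left 6 of 11, no filter gave 2, only those 2 groups 4, the replicate block 7, and a sample left out 1 to 5. ATF4 calls at 5 µM (main 15) numbered 9 to 13.

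Over all genes, 3881 calls at 5 µM became 1897 to 3856 with a sample left out. At 10 µM against 5 µM, 2536 became 869 to 1922, and 1350 with no filter. For the difference between steps, 682 became 0 to 239, 45 with no filter, 354 with the replicate block and 1292 with voom. Of the calls at 10 µM against 5 µM, 57.4% were on the higher side, and 45.4% with median-of-ratios scaling. At 10 µM against PBS these shares were 56.5% and 47.9%.

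Some differences near 0 changed sign. The step difference ranged from -0.08183 to 0.01236 for Mdm2, from -0.004601 to 0.09035 for Sesn1 and from -0.2353 to 0.026 for Bax with a sample left out, and was -0.001556 for Sesn1 with quantile normalization. Ccng1 at 10 µM against 5 µM ranged from -0.02596 to 0.02007, and was 0.0007406 with voom. Mdm4 at 5 µM ranged from -0.06348 to 0.03683, and was 0.007576 with quantile normalization.

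Samples with the same replicate number did not deviate together (correlations -0.055, 0.0143 and 0.0373), so the numbers were not treated as pairs. With 2 samples a group, 3 residual degrees of freedom limit small changes most.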
